A study of Mus musculus with 12 samples.

Results

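The 10 genes followed here were chosen by name as the AP-1 and immediate early transcription factors of the expression table: Fos, Fosb, Fosl1, Fosl2, Jun, Junb, Jund, Maff, Atf3 and Egr1. All 10 of the 10 names were found among the 54532 genes listed. The rule uses names and no measured value, but the set was proposed with earlier results of these data known. The study measured messenger RNA in the gastrocnemius, a calf muscle, of female ICR SCID mice, an outbred stock whose SCID mutation leaves few mature lymphocytes, with 4 biological replicates in each of 3 groups. The tumour-free group received vehicle (NTV). A second group carried a subcutaneous tumour of HT1080 cells, an established human fibrosarcoma line, and received vehicle (TV). The third (TL) also bore HT1080 tumours and was given selpercatinib, which inhibits the kinase RET, by oral gavage at 30 mg per kg once daily over 19 days. All 3 groups shared the strain and the sex, the route of the vehicle and the ages are not given in the sources used here, the tumours came from a single human line, and no tumour-free animals on selpercatinib are analysed here. TV against NTV therefore asks what the tumour-bearing state went with, TL against TV what the drug added to it, and TL against NTV what separated treated tumour-bearing animals from tumour-free ones.

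AP-1 is a dimer of basic leucine zipper proteins: a JUN protein pairs with another JUN protein, a FOS protein or an ATF protein, and the dimer binds short DNA elements. Most of these genes are immediate early genes, transcribed within minutes of a stimulus from factors already present in the cell, and their messages are short lived. In skeletal muscle they are known to respond to contraction, injury, stress and inflammatory signals.

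The stretches just upstream of 4 of the genes are shown. Jun, Junb and Maff were chosen because they rose in muscle of vehicle-treated tumour-bearing mice, and Fos as the family's reference member. Promoter sequences came from RefSeq (build GRCm38.p6), where 8 of the 10 genes matched an entry. Fosl1 and Egr1 had no entry. Each line gives the 170 bases that end just before a transcription start, 5′ to 3′ on the gene's strand, with capitals marking TGACG, TGACGTCA or TGACATCA, elements of the kind bound by CREB, ATF and JUN proteins. For Maff only the second start is shown, the only one of its starts with TGACGTCA, and its first start held no marked element.
Fos, chr12:85473720-85473889, plus strand: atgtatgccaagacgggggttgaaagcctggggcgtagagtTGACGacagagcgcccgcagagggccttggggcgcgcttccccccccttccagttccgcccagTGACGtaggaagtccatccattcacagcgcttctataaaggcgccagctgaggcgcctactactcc
Jun, chr4:95052223-95052392, minus strand: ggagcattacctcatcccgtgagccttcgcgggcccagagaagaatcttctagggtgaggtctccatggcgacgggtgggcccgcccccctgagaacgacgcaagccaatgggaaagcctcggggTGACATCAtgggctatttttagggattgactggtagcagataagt
Junb, chr8:84978749-84978918, minus strand: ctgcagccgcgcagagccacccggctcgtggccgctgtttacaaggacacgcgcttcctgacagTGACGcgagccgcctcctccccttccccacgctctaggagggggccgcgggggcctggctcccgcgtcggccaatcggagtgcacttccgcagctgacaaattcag
Maff, second of 3 starts, chr15:79347350-79347519, plus strand: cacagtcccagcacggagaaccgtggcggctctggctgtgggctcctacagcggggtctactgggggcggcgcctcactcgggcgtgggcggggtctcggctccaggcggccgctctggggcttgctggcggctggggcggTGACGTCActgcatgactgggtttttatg

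In the 250 bases before each start, searched on both strands, Fos held TGACG at 129 and at 66 bases before the start and a TATA element (TATAA) at 33. Jun held TGACATCA at 45 bases before its start, and the third start of Maff held the same letters, also at 45. Junb held TGACG at 106. A CCAAT box (CCAAT) was at 65 in Jun and at 36 in Junb. The second start of Maff held the full cAMP response element TGACGTCA at 29, which overlaps TGACG on each strand. TGACG was also in the windows of Atf3, Fosb and the third start of Maff. Jund and the first start of Maff held none of the elements named here. Which start of Maff is used in this muscle was not tested. Of 32851 upstream windows of that length, 1.55% held TGACGTCA, 2.93% held TGACATCA, 17.8% held TGACG, 22.8% held TATAA and 33.8% held CCAAT. The AP-1 element TGANTCA (6.75% of windows), the STAT element TTCNNNGAA (7.02%) and the CArG box bound by SRF (1.47%) were in none of the 10 windows of the 8 matched genes. Bases farther than 250 before a start were not searched, and Egr1 and Fosl1 had no window. This absence therefore does not show that the genes, Fos among them, lack such elements. Fosl2 and Fosb each held the EGR element GCGNGGGCG, at 79 and 50 bases before the start, as did the second start of Maff at 88, against 4.7% of all windows.

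Levels are in FPKM, fragments counted on a gene divided by its length and by a scale factor of the library, which can be compared between genes. These factors matched median-of-ratios size factors and not the library totals. Libraries held between 14939830 and 23580603 counted reads. All 10 genes passed the filter of a mean of at least 0.5 FPKM, with Fosb (0.717 FPKM over all libraries) and Fosl1 (0.726) just above it. Both rest on few reads, 8 to 229 for Fosb and 13 to 42 for Fosl1, whereas Jun had 1379 to 10622. Differences between groups are on the scale of log2(FPKM + 0.5), with standard errors (SE), and were tested with limma across 12754 genes. A gene was called at a Benjamini-Hochberg adjusted p under 0.05.

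Some features of the libraries touched all results. Summed muscle fibre markers lay between 53808 and 101993 FPKM, but Tnnc2, which encodes fast troponin C, stayed between 0.299 and 2.03 FPKM. Ucp1, the brown fat uncoupling protein, was above 2 FPKM in 3 libraries, NTV replicate 5 (53.4), TL replicate 1 (58.3) and TL replicate 5 (4.00). The 8 adipocyte markers summed to 90.0 to 306 FPKM in NTV, 156 to 718 in TV and 99.5 to 958 in TL, where replicates 1 and 5 (838 and 958) stood above replicates 4 and 7 (228 and 99.5). No adipocyte, macrophage, neutrophil, satellite cell or erythroid marker was called in any comparison, and the neutrophil markers Ly6g and Ngp were under 0.5 FPKM in every library. Markers of fibro-adipogenic progenitors (4 of 7 tested), tendon cells (3 of 4), endothelium (2 of 7) and Schwann cells (1 of 6) were called lower in TV than in NTV. Of all genes tested, 11.5% were called lower there and 13.8% higher. In TV 2 of 12 muscle fibre markers were called higher than in NTV, which, like the Schwann cell count, is near these shares. In TL 3 of 7 endothelial, 2 of 7 fibro-adipogenic, 3 of 4 tendon and 2 of 7 smooth muscle markers were called lower than in NTV. Of all genes tested, 4.62% were called lower in TL than in NTV. Mitochondrial genes took 11.6% to 13.5% of reads in NTV, 5.08% to 7.70% in TV, 10.1% and 13.95% in TL replicates 1 and 5, and 6.04% and 6.55% in TL replicates 4 and 7. The part of these markers and read shares in the results was not tested, and in bulk muscle fewer cells of a type and less RNA per cell cannot be told apart.

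Muscle of vehicle-treated tumour-bearing mice held more Maff, Junb, Jun and Fosl2 message than tumour-free muscle. The mean of Maff went from 3.75 to 20.4 FPKM, that of Junb from 13.7 to 54.1, that of Jun from 33.2 to 94.2 and that of Fosl2 from 3.73 to 7.08. These 4 of 10 genes were called higher and none lower, where 13.8% of all genes tested were called higher. The estimates of 9 of the 10 genes were above 0, with a median of 0.92 on the log2 scale against 0.015 for all genes tested. For Jun, Junb and Maff every TV library lay above every NTV library (3 of 10 genes, against 14.4% of all genes).

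**Figure D1:**
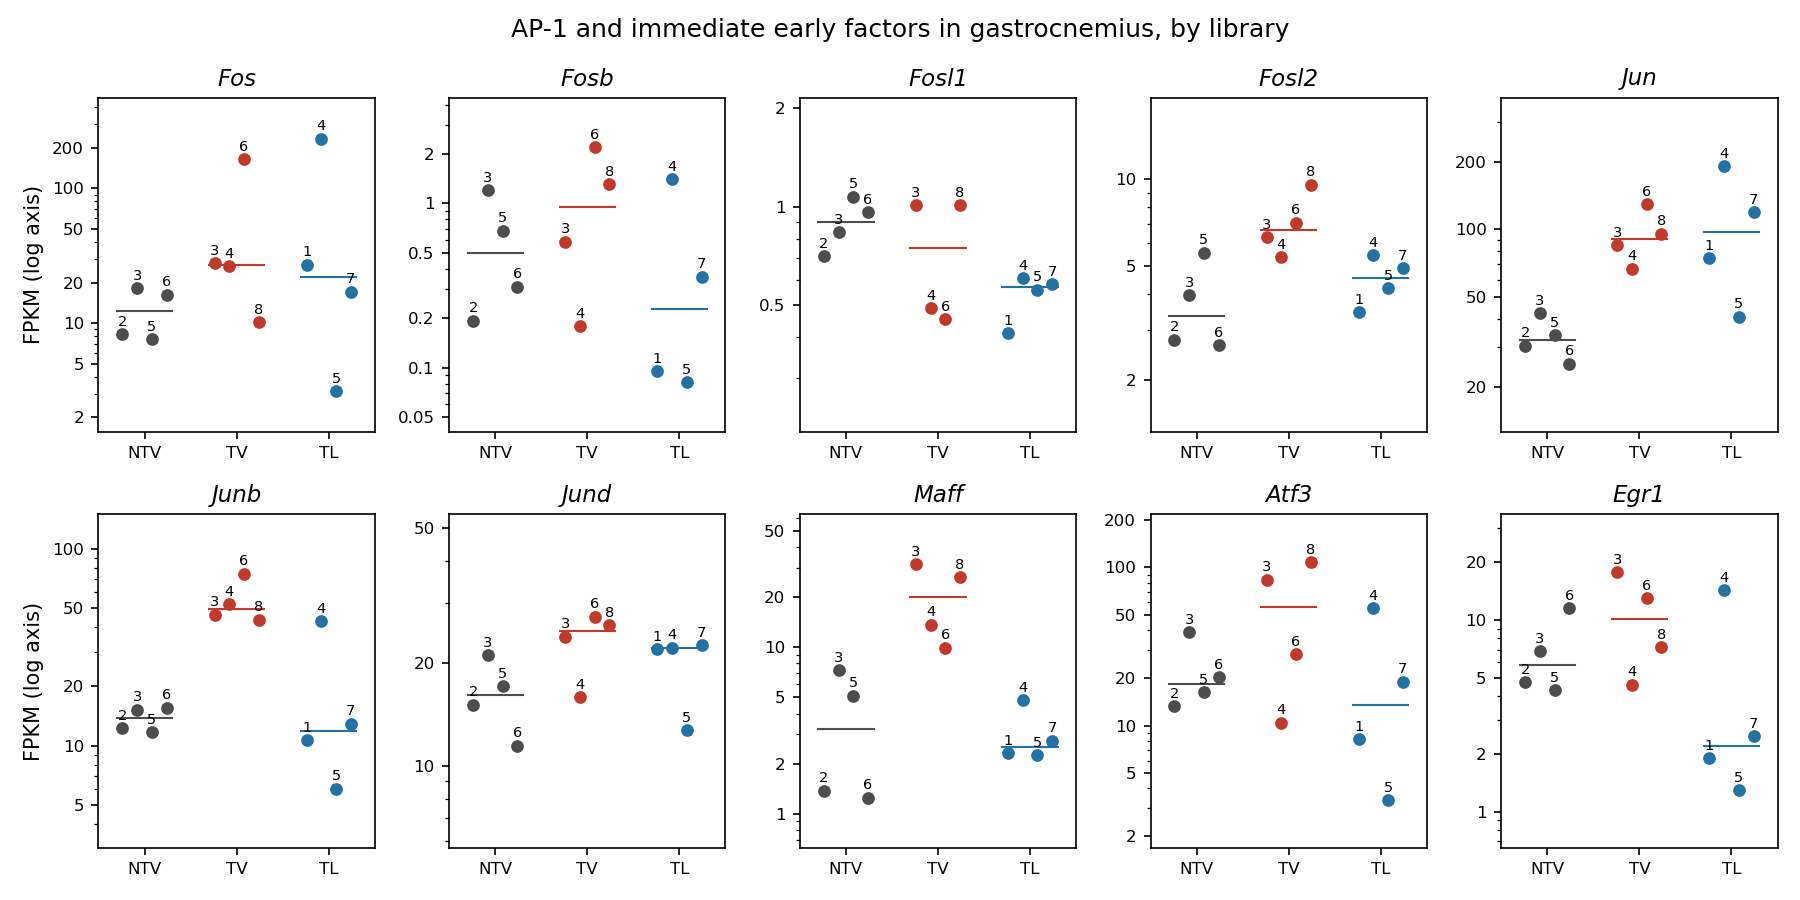
FPKM on a log axis for each of the 10 genes, with a panel for each gene, a point for each library labelled by replicate number, and a line at the group median. The 4 TV libraries lie above the 4 NTV libraries for Jun, Junb and Maff, and TL replicate 4 is the highest TL library in 9 of the 10 panels.

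Among the JUN proteins, Jun encodes c-JUN, the strongest activator of the family. Its level was 30.6, 42.7, 34.1 and 25.4 FPKM in NTV replicates 2, 3, 5 and 6, 85.0, 66.9, 129 and 95.7 in TV replicates 3, 4, 6 and 8, and 74.7, 191, 41.1 and 119 in TL replicates 1, 4, 5 and 7. NTV was the lowest group with no overlap with TV, while TL spanned from inside the NTV range to above every TV library. Jun rose from 33.2 ± 7.26 FPKM (SD, n = 4) in NTV to 94.2 ± 26.2 in TV, by 1.48 ± 0.38 (SE) on the log2 scale (limma, adjusted p = 0.0169). TL averaged 106.6 ± 64.9 FPKM and was also called higher than NTV, by 1.48 ± 0.38 (adjusted p = 0.0357). TL and TV differed by -0.00091 ± 0.38, with a 95% interval from -0.84 to 0.84 (adjusted p = 0.999). That estimate turned above 0 with equal library totals (0.077), quantile normalization (0.093) and voom (0.13), and it was 0.72 without the 3 libraries with Ucp1 above 2 FPKM. The call of Jun in TL against NTV was lost when any NTV library, or TL replicate 1, 4 or 7, was left out (adjusted p up to 0.0953), with no filter (0.0786) and with only the 2 groups compared (0.0557), whereas without the 3 libraries with Ucp1 it was 2.21 ± 0.31 (adjusted p = 0.011).

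Junb encodes JUNB, which activates less strongly than c-JUN and can restrain it, and is known to help maintain muscle mass. Its level was 12.3, 15.2, 11.7 and 15.6 FPKM in NTV, 46.1, 52.1, 74.6 and 43.5 in TV, and 10.7, 43.0, 6.06 and 12.9 in TL, with the replicates in the same order. All TV libraries stood above all others, TL replicate 4 came next, and TL replicates 1 and 5 lay below the NTV range and TL replicate 7 inside it. Junb rose from 13.7 ± 2.00 to 54.1 ± 14.1 FPKM between NTV and TV (1.92 ± 0.44, adjusted p = 0.00917). In TL it averaged 18.2 ± 16.8 FPKM, -1.89 ± 0.44 from TV (limma, adjusted p = 0.0838, not called) and 0.03 ± 0.44 from NTV (95% interval -0.92 to 0.98).

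Jund encodes JUND, the member that is expressed more steadily and is not induced as an immediate early gene in most cells. It measured 15.1, 21.1, 17.1 and 11.5 FPKM in NTV, 23.9, 15.9, 27.4 and 25.9 in TV, and 22.0, 22.2, 12.7 and 22.6 in TL. The 3 groups overlapped, and TL replicate 5 stood alone at the bottom of its group. TV differed from NTV by 0.51 ± 0.23 (adjusted p = 0.124, not called), and TL from TV by -0.23 ± 0.23.

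The make-up of the JUN transcripts was computed within each library, where the scaling of a library cancels. This ratio was chosen after the values were seen, so its differences are a description and no p-value is used for them. Junb over Jun was 0.402, 0.356, 0.343 and 0.614 in NTV, 0.542, 0.778, 0.577 and 0.455 in TV, and 0.143, 0.225, 0.147 and 0.108 in TL. All TL libraries lay below all libraries of the other groups, and NTV and TV overlapped. The mean log2 ratio was 1.94 ± 0.27 (SE) units lower in TL than in TV, a 3.83-fold lower ratio. Against NTV it was 2.77-fold lower, and TV and NTV differed by 0.47 ± 0.25.

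The ratio was 0.143 and 0.147 in the TL libraries with high adipocyte markers and 0.225 and 0.108 in the others. Leaving out 1 library at a time moved the log2 difference between TL and TV only from -2.13 to -1.78. Jun supplied 52.3% ± 2.68 (SD, n = 4) of the summed Jun, Junb and Jund FPKM in NTV, 54.6% ± 3.55 in TV and 72.5% ± 4.03 in TL. Junb supplied 22.2% ± 5.16, 31.7% ± 5.18 and 11.3% ± 3.73. The share of Jund was 25.5% ± 2.48 in NTV, 13.7% ± 2.16 in TV and 16.2% ± 5.85 in TL. The sum of the 3 genes was 63.1 ± 11.4 FPKM in NTV, 171.6 ± 41.7 in TV and 144.6 ± 84.0 in TL.

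**Figure D2:**
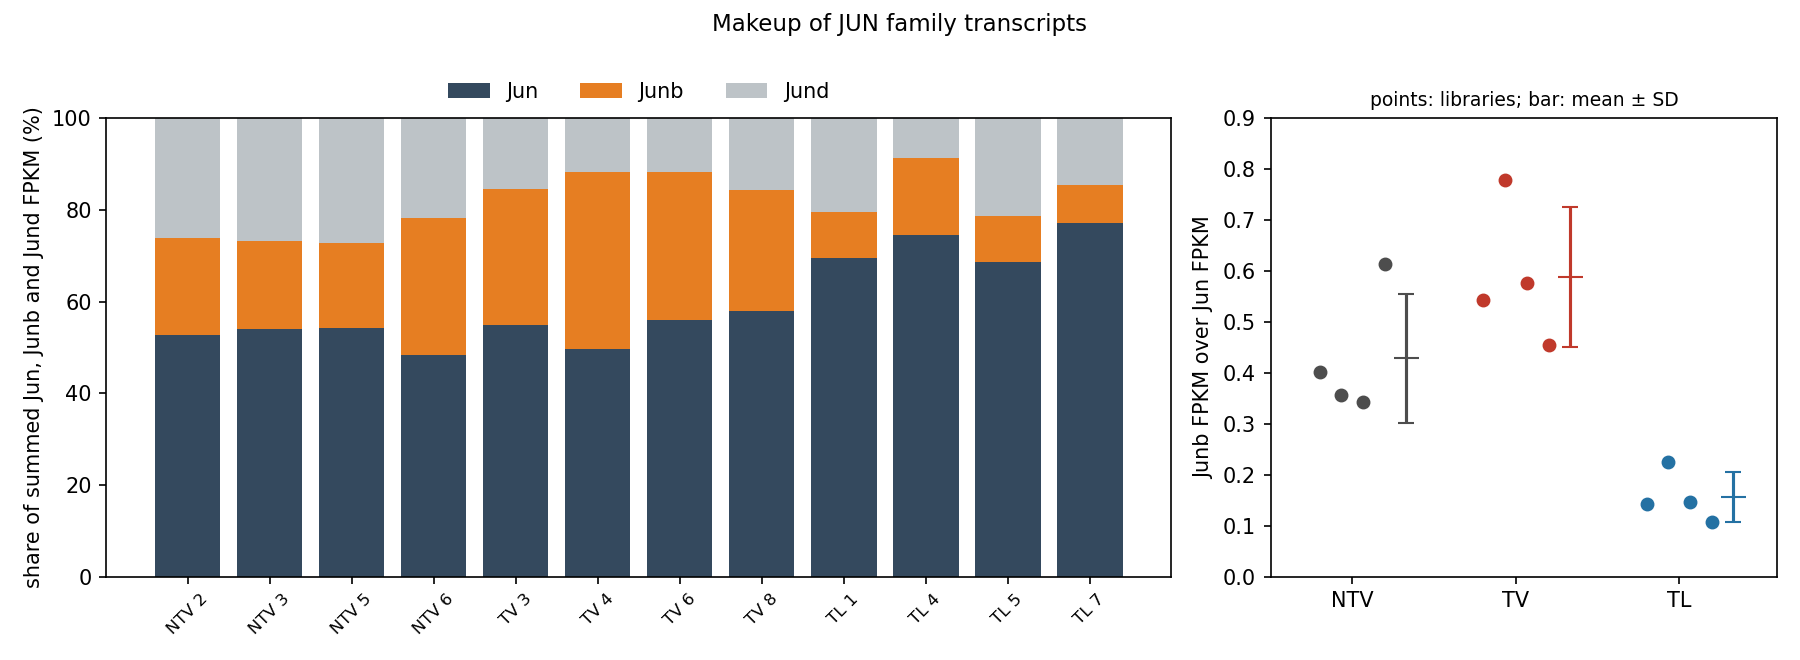
Left, share of the summed Jun, Junb and Jund FPKM taken by each gene in each library, in percent. Right, Junb FPKM over Jun FPKM by library, with mean and SD (n = 4): the TL libraries lie between 0.108 and 0.225, below all NTV and TV libraries (0.343 to 0.778).

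Overlapping genes limit the reading of the JUN genes, since the strand setting of the counting is not given in the sources used here. Jun (chr4:95049034-95052222, minus strand, mm10) overlaps the antisense gene Junos, at 2.58 ± 0.749 FPKM in NTV, 3.42 ± 0.825 in TV and 4.17 ± 1.10 in TL. Junb (chr8:84974484-84978718, minus strand) overlaps Prdx2 on the other strand, which fell from 52.2 ± 5.29 to 38.1 ± 4.12 FPKM in TV (adjusted p = 0.0269), opposite to Junb. Jund (chr8:70698949-70700616) and Atf3 overlap genes with no read in any library.

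Fos encodes c-FOS, the classic immediate early partner of JUN proteins. The gene lies at chr12:85473890-85477273 (plus strand). Fos measured 8.34, 18.2, 7.60 and 16.3 FPKM in NTV, 27.7, 26.6, 165 and 10.1 in TV, and 27.2, 234, 3.14 and 17.1 in TL. One library in each tumour-bearing group, TV replicate 6 and TL replicate 4, stood far above its group, and the 3 groups overlapped. The highest TL library was 74.5 times the lowest, against 2.39 times in NTV. TV differed from NTV by 1.48 ± 1.08 (limma, adjusted p = 0.338), the same estimate as for Jun with an SE almost 3 times as large. TL differed from TV by -0.42 ± 1.08 (95% interval -2.78 to 1.93). That estimate was -1.49 without TL replicate 4, 0.34 without TV replicate 6 and 0.51 without TL replicate 5.

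Fosl2 (chr5:32135801-32157842, plus strand) encodes FRA-2, a FOS family member without the strong activation domain of c-FOS. It measured 2.77, 3.95, 5.56 and 2.65 FPKM in NTV, 6.28, 5.38, 7.07 and 9.59 in TV, and 3.46, 5.45, 4.18 and 4.92 in TL. TV was the highest group, with its lowest library just under the highest of NTV and of TL. Fosl2 rose by 0.86 ± 0.22 in TV, from 3.73 ± 1.35 to 7.08 ± 1.81 FPKM (adjusted p = 0.0167), a call lost without NTV replicate 6 (adjusted p = 0.0502). In TL it averaged 4.50 ± 0.869 FPKM (-0.59 ± 0.22 from TV, adjusted p = 0.233).

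Fosb (chr7:19302696-19310051, minus strand), which encodes FOSB, was at 0.193, 1.20, 0.682 and 0.311 FPKM in NTV, 0.585, 0.179, 2.19 and 1.32 in TV, and 0.0954, 1.41, 0.0816 and 0.359 in TL. All groups overlapped and no difference was called. Fosl1 (chr19:5447703-5455945, plus strand), which encodes FRA-1, was at 0.706, 0.838, 1.07 and 0.964 FPKM in NTV, 1.01, 0.492, 0.455 and 1.01 in TV, and 0.412, 0.605, 0.559 and 0.581 in TL. It was the only one of the 10 genes whose estimate in TV against NTV was below 0 (-0.20 ± 0.18, adjusted p = 0.448). All TL libraries lay below all NTV libraries for Fosl1 (1 of 10 genes, where 10.1% of all genes tested lay so), at -0.42 ± 0.18 (adjusted p = 0.147, not called).

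Maff encodes MAFF, a small MAF protein that lacks an activation domain and pairs with other bZIP proteins, among them NRF2 and BACH1. It lies at chr15:79346621-79359076 (plus strand). Maff measured 1.37, 7.26, 5.12 and 1.25 FPKM in NTV, 31.5, 13.7, 9.93 and 26.3 in TV, and 2.32, 4.80, 2.26 and 2.74 in TL. Every TV library lay above every library of both other groups, and TL lay within the NTV range. Maff rose from 3.75 ± 2.95 to 20.4 ± 10.2 FPKM between NTV and TV (2.45 ± 0.50, limma, adjusted p = 0.00585). In TL it averaged 3.03 ± 1.20 FPKM, -2.47 ± 0.50 from TV (95% interval -3.57 to -1.38, adjusted p = 0.057, not called). TL and NTV differed by -0.02 ± 0.50 (95% interval -1.12 to 1.07), an estimate above 0 with equal library totals (0.091) and voom (0.039).

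Atf3 (chr1:191170296-191218039, minus strand) encodes ATF3, a stress-induced bZIP factor of the ATF and CREB family. Atf3 measured 13.2, 38.9, 16.3 and 20.2 FPKM in NTV, 83.5, 10.4, 28.2 and 108 in TV, and 8.19, 55.4, 3.37 and 18.9 in TL. TV held both the 2 highest libraries and one below the whole NTV range, so the groups overlapped. The means were 22.2 ± 11.5, 57.6 ± 46.0 and 21.5 ± 23.5 FPKM, and TV differed from NTV by 0.98 ± 0.83 (adjusted p = 0.413) and TL from TV by -1.57 ± 0.83 (adjusted p = 0.38).

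Egr1 (chr18:34859823-34864984, plus strand), the only zinc finger factor of the 10, is induced by growth factor signalling through SRF and ETS proteins. Egr1 measured 4.72, 6.89, 4.31 and 11.5 FPKM in NTV, 17.8, 4.59, 13.0 and 7.20 in TV, and 1.90, 14.3, 1.29 and 2.48 in TL. TL replicates 1, 5 and 7 lay below every other library and TL replicate 4 was second highest of all 12. TV differed from NTV by 0.53 ± 0.61 (adjusted p = 0.556), and TL from TV by -1.42 ± 0.61 (adjusted p = 0.285).

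By mean FPKM per gene the order in NTV was Jun, Atf3, Jund, Junb, Fos, Egr1, Maff, Fosl2, Fosl1 and Fosb, where Jund, Junb and Fos lay within their SDs, as did Maff and Fosl2. In TV it was Jun, Atf3, Fos, Junb, Jund, Maff, Egr1, Fosl2, Fosb and Fosl1. Atf3, Fos and Junb lay within 54.1 to 57.6 FPKM there, much closer than their SDs. In TL it was Jun, Fos, Atf3, Jund, Junb, Egr1, Fosl2, Maff, Fosl1 and Fosb, where Atf3, Jund and Junb lay between 18.2 and 21.5 FPKM, again within their SDs.

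In TL against TV limma called none of the 10 genes, where 0.517% of all genes tested were called. An unadjusted p under 0.05 was found for 4 of them (Maff, Junb, Fosl2 and Egr1), where 16.1% of all genes had one, and voom on recovered reads called 1, Maff, lower. All 10 estimates were below 0, with Jun's at -0.00091, and their median was -0.63 against -0.0031 for all genes. Both TL against TV and TV against NTV use the TV libraries, so the 2 sets of estimates are not independent. For Maff and Junb every TL library lay below every TV library (2 of 10 genes, against 4.05% of all genes). The count changed with TL replicate 4, the highest TL library for 9 of the genes: without it Junb (-2.42 ± 0.25, adjusted p = 0.00622), Maff (-2.69 ± 0.54, adjusted p = 0.0376) and Egr1 (-2.08 ± 0.43, adjusted p = 0.0406) were called lower. The calls over all genes tested rose as well, from 66 with every library to 282 without TL replicate 4. Leaving out NTV replicate 3 or TV replicate 6 also brought Maff under the threshold (adjusted p of at most 0.0483). Leaving out TL replicate 5 went the other way. It left 7 of all genes called and none of the 10, with Maff at adjusted p = 0.178 and Junb at 0.222 (limma). Without the 3 libraries with Ucp1, which leaves TL replicates 4 and 7, Maff was at -2.19 ± 0.65 (adjusted p = 0.529) and Junb at -1.14 ± 0.40 (adjusted p = 0.651).

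In TL against NTV Jun alone was called (1 of 10, where 4.19% of all genes tested were called higher and 4.62% lower), and the median estimate was 0.0029 against 0.022 for all genes. Maff, Junb and Fosl2, higher in TV, were at -0.02 ± 0.50, 0.03 ± 0.44 and 0.28 ± 0.22 here. The 95% intervals of these differences reach up to 1.07, 0.98 and 0.76.

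**Figure D3:**
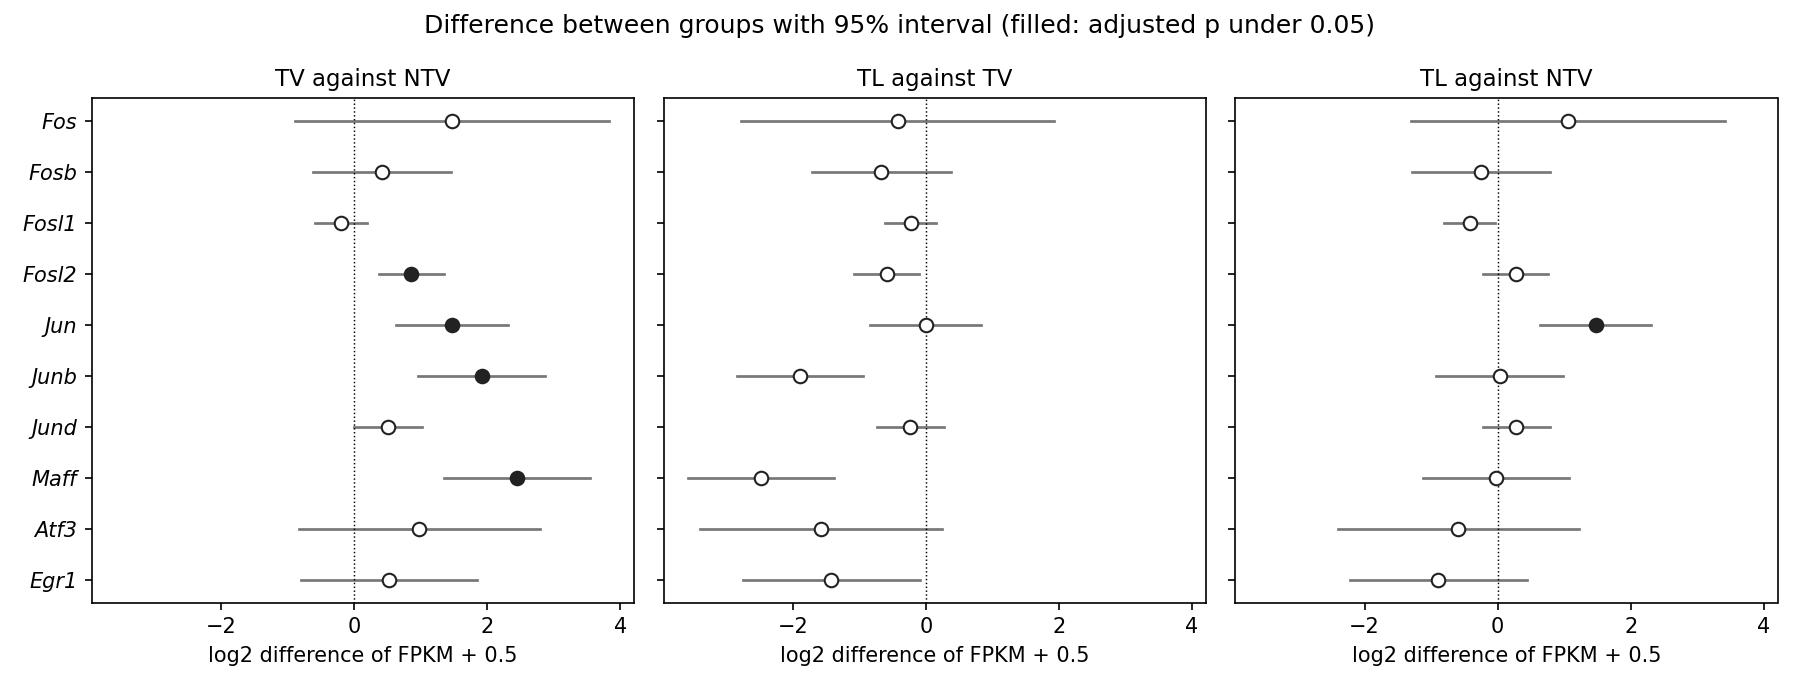
Difference between group means of log2(FPKM + 0.5) for each gene (points) with its 95% interval (lines) in the 3 comparisons; filled points are called at an adjusted p under 0.05. Jun, Junb, Maff and Fosl2 are filled in TV against NTV, none in TL against TV, and Jun in TL against NTV.

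In TL the libraries differed from each other in most of these genes together, while in TV and NTV the order varied more between genes. TL replicate 4 was the highest TL library for 9 of the 10 genes (all but Jund) and TL replicate 5 the lowest for 8. TV replicate 6 was the highest of TV for 5 genes but the lowest for 2 (Fosl1 and Maff), and TV replicate 4 was the lowest for 6. TV replicate 8 was the highest for 3 (Fosl1, Fosl2 and Atf3) and the lowest for 2 (Fos and Junb). NTV replicate 3 was the highest of NTV for 6, and NTV replicate 6 the highest for 2 (Junb and Egr1) and the lowest for 4. The mean z-score of the 10 genes ran from -1.23 (TL replicate 5) to 0.838 (TL replicate 4) within TL, from -0.113 to 0.983 within TV and from -0.804 to 0.111 within NTV. TL replicates 1 and 5, with the higher adipocyte markers and mitochondrial read shares, had z-scores of -0.673 and -1.23, and TL replicates 4 and 7 had 0.838 and -0.21; the part of these markers and shares in the order was not tested.

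Genes with the most similar profiles were ranked by Pearson r of log2(FPKM + 0.5) over the same 12 libraries among 9659 protein-coding genes, as a description. The closest to Jun were Senp3 (r = 0.977), Chrnb1 (0.955) and Vamp2 (0.938). Those closest to Junb were Copa (0.949), Sfxn3 (0.943) and Golga5 (0.942). Maff was closest to Csrnp1 (0.97), Hdac5 (0.954) and Mafk (0.953), Fos to Tmed3 (0.903), and Egr1 to Sec24c (0.908). The 8 genes closest to the mean z-score of the 10 genes were Btg2 (0.946), 1810055G02Rik (0.938), Nek6 (0.933), Ddost (0.931), Nr4a1 (0.93), Otud1 (0.928), Cnpy2 (0.91) and Tuba4a (0.908). Only Btg2 and Nr4a1 of these are on the list of other immediate early genes used below.

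Some other immediate early genes were also higher in the muscle of vehicle-treated tumour-bearing mice (TV). Of 36 listed, 32 were tested, and 14 were called higher and none lower in TV against NTV, where 13.8% and 11.5% of all genes were; the median was 1.04. Sik1, a kinase induced by cAMP, rose from 6.75 ± 5.09 to 29.4 ± 9.06 FPKM (2.34 ± 0.61, limma, adjusted p = 0.0167). Per1, a clock gene with a cAMP-induced promoter, rose from 11.5 ± 10.1 to 33.6 ± 4.82 FPKM (2.04 ± 0.63), and Btg2, an antiproliferative gene, from 27.8 ± 23.6 to 92.3 ± 32.4 (2.00 ± 0.67). Csrnp1, a nuclear factor, rose from 2.051 ± 1.59 to 8.27 ± 4.94 FPKM and Klf6, a zinc finger factor, from 9.92 ± 6.12 to 32.7 ± 15.1. These 5 calls, named for the size of their differences, were fragile, and how firm the other calls of the list were is not given here. Sik1 was lost without NTV 6 and Csrnp1 without NTV 2, NTV 6 or TV 3. Klf6 was lost without NTV 2, NTV 6, TV 3 or TV 4, Per1 without NTV 2, NTV 6 or any TV library, and Btg2 without 8 of the 12 libraries (NTV 2, 5 and 6, TV 3, 6 and 8, TL 1 and 7), with adjusted p up to 0.127. With no filter on low values Per1 (adjusted p = 0.0776), Klf6 (0.0548) and Btg2 (0.104) lost the call too. Per1 also lost it with only the 2 groups compared (0.0544), and Btg2 with equal totals (0.057), quantile normalization (0.0592), no trend (0.0509) and voom (0.0515).

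In TL against TV none of the 32 was called by limma (14 had an unadjusted p under 0.05) and 25 estimates were below 0. Of all genes tested, 0.517% were called there and 16.1% had an unadjusted p under 0.05. The smallest p values belonged to Ppp1r15a, a phosphatase subunit of the stress response (24.4 ± 10.1 FPKM in TV and 10.4 ± 2.59 in TL, adjusted p = 0.0748), and Gadd45b, a stress gene (24.7 ± 2.25 and 13.1 ± 2.46, adjusted p = 0.0759). Both were called lower without TL replicate 4, Ppp1r15a also without TV replicate 6 and Gadd45b also without NTV replicate 5 (adjusted p between 0.0276 and 0.0449). In TL against NTV limma called 2 of the 32 higher, where 4.19% of all genes were. Sgk1, a kinase induced by glucocorticoids, rose from 33.9 ± 13.6 to 82.0 ± 29.6 FPKM (adjusted p = 0.0449). Ier3, a survival gene, rose from 4.50 ± 1.29 to 10.6 ± 2.06 FPKM (adjusted p = 0.0218). Ier3 lost its call without NTV replicate 3 or 5 or TL replicate 1 or 4, and Sgk1 without NTV replicate 2, 3 or 6, TV replicate 3 or TL replicate 4, 5 or 7 (adjusted p up to 0.114). Sgk1 was also lost with no filter (0.094), and Ier3 without the 3 libraries with Ucp1 (0.154).

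**Figure D4:**
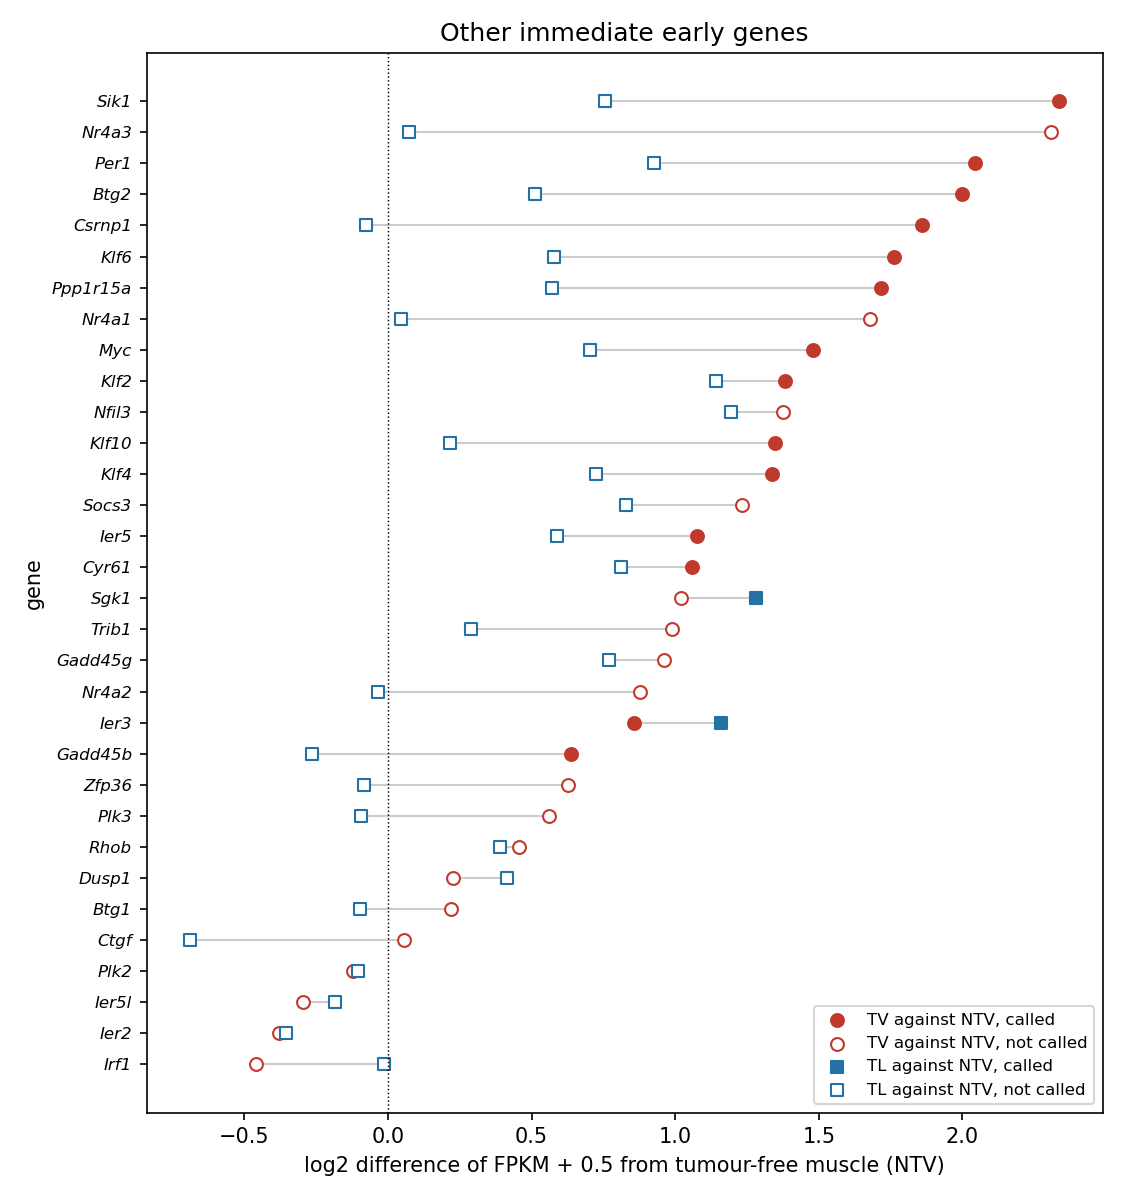
Difference from NTV in log2(FPKM + 0.5) for the 32 other immediate early genes tested, circles for TV and squares for TL, filled where called. The TV circles of 28 genes lie above 0, 14 of them filled, and the TL squares are filled for Sgk1 and Ier3 only; both sets share the NTV libraries.

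Among bZIP partners outside the 10 genes, 25 of 32 were tested, and 9 were called higher and none lower in TV against NTV, where 13.8% and 11.5% of all genes were. Mafk, another small MAF, rose from 6.44 ± 2.29 to 22.0 ± 9.74 FPKM (1.66 ± 0.34, limma, adjusted p = 0.00568). Genes of its dimer partners rose as well: Bach1, a repressor, rose from 4.98 ± 0.603 to 14.2 ± 6.41 FPKM (1.34 ± 0.25) and Nfe2l2, which encodes NRF2, from 11.7 ± 1.86 to 36.3 ± 16.2 (1.49 ± 0.29). The C/EBP genes Cebpd (7.05 ± 4.75 to 47.2 ± 28.3 FPKM, 2.70 ± 0.69) and Cebpb (42.8 ± 15.7 to 84.6 ± 21.5, 1.03 ± 0.30) rose too, both known for inflammatory induction. Of these 5, Cebpb alone lost its call when a library was left out (NTV 2 or 6, TV 3 or 8, adjusted p up to 0.073), and it was also lost with no filter (0.0618) and quantile normalization (0.0587). None of the 25 was called by limma in TL against TV, and 7 had an unadjusted p under 0.05, against 16.1% of all genes. Mafk was at 8.06 ± 3.15 FPKM in TL (adjusted p = 0.102 against TV, called lower without TL replicate 4). Atf7 differed from TV by -0.37 ± 0.08 (adjusted p = 0.0769, called lower without TV replicate 8).

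Of 27 tested genes of the MAP kinase and SRF input, 4 were called higher and 3 lower in TV against NTV, with a median of -0.087. These counts are near the shares of all genes, 13.8% higher and 11.5% lower. Mkl1, a coactivator of SRF, fell from 6.36 ± 0.552 to 2.56 ± 1.58 FPKM (-1.31 ± 0.29, limma, adjusted p = 0.00835). Of the kinases that feed p38, Map2k6 fell from 6.55 ± 0.983 to 3.59 ± 0.570 FPKM (adjusted p = 0.00251), and Map2k3 rose from 40.2 ± 7.01 to 59.5 ± 2.94 (adjusted p = 0.00731). Elk4, an ETS partner of SRF (0.77 ± 0.25, adjusted p = 0.0407), and Mapk14, which encodes p38α (-0.36 ± 0.12, adjusted p = 0.0444), were called but each lost the call in 8 and 9 of 12 omissions of a library, all but TV 6 and 8 and TL 4 and 5 for Elk4 and all but NTV 5 and TV 6 and 8 for Mapk14. Both calls were also lost with no filter, equal totals or only the 2 groups compared (adjusted p from 0.0563 to 0.132), and that of Elk4 also with quantile normalization (0.0532), voom (0.075) and without the libraries with Ucp1 (0.0956). In TL against NTV Map2k3 rose (0.66 ± 0.12), Mapk14 fell to 25.8 ± 1.504 FPKM (-0.59 ± 0.12, adjusted p = 0.0131) and Rps6ka5, a nuclear kinase below p38 and ERK, rose (0.61 ± 0.13, adjusted p = 0.0152). The Mapk14 call was lost with equal totals (0.0622) and that of Rps6ka5 without the libraries with Ucp1 (0.108). No member of the list was called by limma in TL against TV. Of the 27, 4 had an unadjusted p under 0.05, near the 16.1% of all genes. The smallest p values were those of Rps6ka5 (0.46 ± 0.13, adjusted p = 0.131, called higher without TL replicate 4 and with voom, 0.0489) and Map2k7 (-0.22 ± 0.07, adjusted p = 0.195).

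Of 19 tested genes that restrain MAP kinases or the factors themselves, 6 were called lower and none higher in TV against NTV, where 11.5% of all genes were called lower. Dusp10, a phosphatase of JNK and p38, fell from 18.6 ± 7.13 to 6.22 ± 1.22 FPKM (-1.45 ± 0.33, limma, adjusted p = 0.00878), and Dusp6, a phosphatase of ERK, from 6.54 ± 1.33 to 2.92 ± 0.850 (-1.06 ± 0.24, adjusted p = 0.00895). Fbxw7, a ubiquitin ligase subunit that acts on c-JUN, fell by 0.60 ± 0.15 on the log2 scale (adjusted p = 0.014). Spred1 (-0.43 ± 0.12) and Spred2 (-0.40 ± 0.13), which dampen RAF activation, fell as well, Spred1 losing its call without NTV replicate 5 and Spred2 without NTV replicate 2, 3 or 5, any TV library but 8, or TL replicate 7 (adjusted p up to 0.103). With equal totals Spred1 (0.104) and Spred2 (0.127) lost the call, as they did without the libraries with Ucp1 (0.0784 and 0.12), and Spred2 lost it with no filter (0.0826) and only the 2 groups compared (0.0645).

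In TL Dusp10 was at 6.85 ± 3.24 FPKM and Dusp6 at 3.45 ± 1.07, both called lower than NTV (adjusted p = 0.0221 and 0.0466). Dusp7, another ERK phosphatase, was called higher than NTV (7.33 ± 1.93 to 13.0 ± 2.95 FPKM, adjusted p = 0.0298). The Dusp10 call was lost without NTV replicate 2 or 6 or TL replicate 4 or 7, and that of Dusp7 without NTV replicate 2 or 6 or TL replicate 1, 4 or 5. The Dusp6 call was lost in 8 of 12 omissions (NTV 2, 5 and 6, TV 3 and 6, TL 1, 4 and 7), with adjusted p up to 0.11. With no filter the calls of Dusp10 (0.0506), Dusp7 (0.0616) and Dusp6 (0.0964) were lost. Without the libraries with Ucp1 those of Dusp7 (0.0901) and Dusp6 (0.086) were lost, that of Dusp7 also with only the 2 groups compared (0.0505). Dusp6 lost its call also with equal totals (0.0905), a pseudocount of 0.1 (0.0524) and no trend (0.0511). None of the 19 was called by limma in TL against TV, and 2 had an unadjusted p under 0.05, against 16.1% of all genes. Dusp7 differed from TV by 0.81 ± 0.20 (adjusted p = 0.0938, called higher with voom, 0.0298) and Spry1 by 0.26 ± 0.10 (adjusted p = 0.249).

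Of 25 listed genes known as targets of AP-1 or EGR1 in other cells, 17 were tested. In TV against NTV limma called 2 lower and none higher, where 11.5% and 13.8% of all genes were called lower and higher. The 2 lower calls are therefore near the background. Ccnd1, which encodes cyclin D1, fell from 2.26 ± 0.683 to 0.298 ± 0.0897 FPKM (-1.77 ± 0.18, limma, adjusted p = 0.000521) and stayed at 0.460 ± 0.157 FPKM in TL (adjusted p = 0.00208 against NTV). Vegfa, the endothelial growth factor, fell from 80.3 ± 15.4 to 55.8 ± 9.22 FPKM (adjusted p = 0.0352), a call lost when NTV 2, 3 or 6 or TV 3, 6 or 8 was left out (adjusted p up to 0.0945), with no filter (0.068) and with equal totals (0.111). Endothelial and fibro-adipogenic markers were lower in the same libraries, as given above, and their part here was not tested. Mmp14, a membrane protease, fell from 1.99 ± 0.295 FPKM in NTV to 0.943 ± 0.188 in TL (adjusted p = 0.0131) and Gclm, a glutathione enzyme driven by NRF2, rose from 2.77 ± 0.263 to 4.89 ± 0.392 (adjusted p = 0.0332). The Gclm call was lost when any NTV library or TL replicate 1, 4 or 7 was left out (its adjusted p then being at most 0.0872) and with no filter (0.0702). Without the libraries with Ucp1 the calls of both Mmp14 (0.0907) and Gclm (0.174) were lost. In TL against TV limma called none of the 17, with Mmp14 at -0.67 ± 0.16 (adjusted p = 0.0864). An unadjusted p under 0.05 was found for 2 of the 17, near the 16.1% of all genes.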

How the data were processed

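Poly(A) RNA of 12 gastrocnemius samples was sequenced, per the labels' protocols. Per the submitters' processing notes, HISAT2 2.05, featureCounts 1.5.0-p3, DESeq2 and build mm10 were used, with no roles given. The authors deposited FPKM values for 54532 genes. Within a tolerance of 0.1 read, 100% of these values are whole reads, and the library scale matches median-of-ratios size factors, so depth was recovered (14939830 to 23580603 reads). The members and all gene lists were chosen with earlier results of these data known.

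One limma 3.58.1 model (R 4.3.3) with a mean for each group and a mean-variance trend was fitted to log2(FPKM + 0.5) of the 12754 genes with a mean of at least 0.5 FPKM in all 12 libraries, with Benjamini-Hochberg adjustment over all of them. A trial of the fit on simulated reads drew each gene independently, without shifts shared by a library. Its outcome is not given here. Of each list the 5 called genes with the largest difference in TV against NTV and up to 3 in each other comparison were named, or the 2 with the smallest p where none was called; some genes this rule selects are not reported here. A symbol with more than 1 entry was taken as the protein-coding gene with the higher mean. Alternatives were pseudocounts of 0.1 and 1, no filter, a minimum of 1 FPKM, equal totals, quantile normalization, no trend, only the 2 groups compared, a replicate block, voom on recovered reads, and leaving out each library. Leaving out the 3 libraries with Ucp1 above 2 FPKM was added after seeing the data. Intervals are 95%.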

Additional observations from a re-analysis of the deposited data

Results flagged for a closer look

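Within groups of 4 libraries, the highest or lowest library was compared with the rest by Dixon's test for the 10 genes and the other named genes. Of 138 groups, 8 had a library past the limit of the test. This is near the 1 in 20 that chance gives when values are normally distributed. The test used FPKM and not the log2 scale, and FPKM need not be so distributed, so the 8 are a description only. Fos was at 165 FPKM in TV replicate 6, with the other TV libraries at 10.1 to 27.7, and at 234 FPKM in TL replicate 4, with the others at 3.14 to 27.2. Egr1 was at 14.3 FPKM in the same TL replicate 4, the others at 1.29 to 2.48. Jund was lowest in TL replicate 5, at 12.7 FPKM against 22.0 to 22.6. Sik1 was at 43.0 FPKM in TV replicate 3, the others at 24.2 to 25.9, and Btg2 was lowest in TV replicate 4, at 43.9 FPKM against 104 to 111. Dusp6 was lowest in NTV replicate 3, at 4.55 FPKM against 7.03 to 7.30, and Dusp7 was highest in TV replicate 6, at 8.40 FPKM against 6.50 to 6.77.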

How the results depend on the processing

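Jun, Junb and Maff stayed called in TV against NTV under all alternatives but the replicate block. Correlations of deviations from the group means lay between 0.0142 and 0.133 for the 4 shared numbers. Pairs with unlike numbers were not set beside them, so they cannot tell whether the numbers link samples. With the block 0 genes and 0 of the 10 were called in each comparison, with 2 residual degrees of freedom. Under the block, estimates turned to -0.070 (Fosb), -0.27 (Atf3) and -0.0024 (Egr1) in TV against NTV, to 0.62 (Fos), 0.27 (Fosb), 0.35 (Jun), 0.25 (Atf3) and 0.060 (Egr1) in TL against TV, and to 0.20 (Fosb) and 0.058 (Egr1) in TL against NTV. The estimate for Jun in TL against TV was 0.00021 with a pseudocount of 1, 0.077 with equal totals, 0.093 with quantile normalization, 0.13 with voom and 0.72 without the 3 libraries with Ucp1. Without those libraries Fos was at 0.92 in TL against TV, and Fosb at 0.38, Maff at 0.50 and Atf3 at 0.56 in TL against NTV, where Maff was also at 0.015 with a pseudocount of 0.1, 0.091 with equal totals and 0.039 with voom. The cause of these turns was not tested.

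In TL against TV the 66 called genes became 19 with no filter, 40 with equal totals, 8 with only the 2 groups, 166 with voom and 0 without the Ucp1 libraries, and 1 of the 10, Maff, was called with a pseudocount of 1, a minimum of 1 FPKM or voom. In TL against NTV the 1123 called genes became 742 with no filter, 729 with equal totals and 712 without the Ucp1 libraries, and 0 of the 10 were called with no filter or only the 2 groups. The share of calls that were higher moved from 45.5% to 75.0% with equal totals and 85.5% with voom in TL against TV, from 54.6% to 30.9% with voom in TV against NTV and from 47.6% to 63.0% with equal totals in TL against NTV. The median of all genes moved to 0.129 with voom in TL against TV and to 0.135 with equal totals in TL against NTV.

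Leaving out 1 library gave 2223 to 3443 called genes in TV against NTV, 7 to 282 in TL against TV and 514 to 1289 in TL against NTV, with 3 to 4, 0 to 3 and 0 to 1 of the 10. Estimates that turned ranged from -1.49 to 0.51 (Fos) and -0.35 to 0.38 (Jun) in TL against TV, and from -0.015 to 1.99 (Fos), -0.50 to 0.41 (Junb), -0.35 to 0.37 (Maff) and -1.26 to 0.021 (Atf3) in TL against NTV. At 8 to 229 reads Fosb limits any statement on it, as do the 13 to 42 reads of Fosl1.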
